A study of Mus musculus with 18 samples.

Results

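Prostaglandins are lipid messengers made from arachidonate, and the 10 genes described here cover their synthesis and reception: Pla2g4a, Ptgs1, Ptgs2, Ptges, Ptgis and Ptgds on the synthesis side and Ptger2, Ptger4, Ptgfr and Ptgir on the receptor side. They were chosen by symbol from the 54532 genes of the count table. The rule itself uses no measured value, but the choice was made with earlier results of these data known. Each had at least 1 count in the 18 libraries, and 9 of the 10 were among the 14317 genes with enough counts to test, Ptger2 being left out.

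The cells were 10T1/2 cells, a mouse mesenchymal line with fibroblast features that can be driven toward adipocytes or toward myofibroblasts. WT cells and a pair of lines labelled FOXS1 KO, clone 1 and clone 2, were compared, each KO line being a single-cell clone made by CRISPR-Cas9 editing of Foxs1. Each was either left uninduced or was TGF-β1 + DMII stimulated, that is, pretreated for 12 h with TGF-β1 at 1 nM and induced for a further 48 h with DMII. DMII is an adipogenic cocktail in which the cyclooxygenase inhibitor indomethacin joins insulin, the glucocorticoid dexamethasone and the phosphodiesterase inhibitor 3-Isobutyl-1-methylxanthine. There were 3 libraries in each of the 6 groups. The lines were kept in medium with serum and grown past confluence before treatment. The study's methods describe an overnight serum starvation before TGF-β1, and whether the uninduced groups had it is not given in the sources used here. No group received TGF-β1 or DMII separately, so their parts in a response cannot be told apart, and each clone is a single line, so its genotype cannot be told apart from its clonal history.

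In this pathway cytosolic phospholipase A2 releases arachidonate from membranes, a cyclooxygenase turns it into prostaglandin H2, and terminal synthases turn that into the prostanoid a cell secretes, which acts on G protein-coupled receptors. Prostacyclin and prostaglandin F2α are known for opposite roles in adipogenesis, the former promoting it and the latter restraining it. Indomethacin, which every stimulated group received, blocks the activity of both cyclooxygenases, so the transcript levels below are not a readout of prostaglandin output.

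Library totals ran from 15576685 to 42005596 counts. Levels are given as CPM (counts scaled to a common library size, with TMM factors), and as CPM per kb of gene length wherever 1 gene is set against another. Summed over 8 fibroblast markers, every library held 33900 to 79200 CPM. Thy1, however, averaged 0.616 CPM or less in both groups of clone 2 against 49 CPM or more in the other 4 groups. Col1a1, Col1a2 and Col3a1 had the highest means of the list in every group. These, Pdgfra and Pdgfrb averaged higher after stimulation in each line, whereas Vim, Thy1 and Lum averaged lower. Lum went from 105 to 10.4 CPM in WT, from 17.2 to 0.467 CPM in clone 1 and from 46.5 to 0.537 CPM in clone 2. Pdgfra averaged 517 CPM in uninduced WT, against 171 and 216 CPM in uninduced clones 1 and 2. Defining leukocyte genes were near the floor, with Ptprc at 0 in every library and a marker sum of at most 1.68 CPM. Endothelial markers summed to 5.03 to 7.92 CPM in WT uninduced libraries, mostly Tek, and to at most 0.828 CPM elsewhere. Adipocyte markers summed to 6.29 to 9.96 CPM in stimulated clone 1 libraries, mostly Plin1, with Cfd, Lep and Retn at 0, and to at most 1.18 CPM in the other groups. Epithelial markers summed to at most 3.52 CPM. Foxs1 itself went against the KO labels, since it averaged 2.23 ± 0.886 CPM in WT uninduced and 2.51 ± 0.641 CPM in WT stimulated libraries, but 25.7 ± 2.04 and 54.5 ± 2.06 CPM in those of clone 1 and 22.6 ± 1.44 and 39.9 ± 2.59 CPM in those of clone 2 (SD, n = 3). The study reported loss of FOXS1 protein in both clones by western blot, and disruption of the locus by genomic sequencing. Neither measurement is among the data used here. A gene total does not show an edit, so "clone 1" and "clone 2" below mean the libraries labelled as such.

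The members whose upstream sequence is shown here lie on chromosomes 1 and 2 of GRCm38. Ptgs2 (ENSMUSG00000032487, chr1:150100031-150108227, plus strand) and Ptgs1 (ENSMUSG00000047250, chr2:36230426-36252272, plus strand) encode the cyclooxygenases. Ptges (ENSMUSG00000050737, chr2:30889471-30929863, minus strand) encodes the inducible prostaglandin E synthase. The 250 bases before the RefSeq start of each (GRCm38.p6) are shown because Ptgs2 and Ptgs1 moved by very different amounts and because Ptges transcripts were almost missing from both clones. They read 5′ to 3′ on the gene's strand, with matches to the searched motifs in capitals.
Ptgs2, chr1:150099781-150100030, plus strand: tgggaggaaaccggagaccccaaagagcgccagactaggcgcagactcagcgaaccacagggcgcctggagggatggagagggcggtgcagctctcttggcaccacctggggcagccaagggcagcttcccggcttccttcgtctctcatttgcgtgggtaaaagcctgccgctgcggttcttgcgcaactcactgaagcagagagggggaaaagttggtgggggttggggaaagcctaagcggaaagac
Ptgs1, chr2:36230176-36230425, plus strand: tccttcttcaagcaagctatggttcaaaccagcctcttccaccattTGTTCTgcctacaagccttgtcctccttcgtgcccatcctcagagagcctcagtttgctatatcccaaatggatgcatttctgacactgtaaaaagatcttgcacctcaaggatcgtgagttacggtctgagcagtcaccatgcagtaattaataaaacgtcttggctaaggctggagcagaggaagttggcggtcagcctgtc
Ptges, chr2:30903298-30903547, minus strand: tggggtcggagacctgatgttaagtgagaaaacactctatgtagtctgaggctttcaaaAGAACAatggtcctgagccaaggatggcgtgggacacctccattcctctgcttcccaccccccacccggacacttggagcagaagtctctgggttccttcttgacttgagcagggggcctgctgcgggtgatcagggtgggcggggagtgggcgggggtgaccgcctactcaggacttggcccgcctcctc

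A fixed set of motifs was searched on both strands, from 250 bases before to 50 bases after each start. For cAMP signalling these were the response elements TGACGTCA and TGACGCAA, and for NF-κB GGACTTTCC and GGGATTTCC. An arm of the glucocorticoid response element was written as AGAACA. The SMAD motif was CAGACA. The forkhead motif, that of the family FOXS1 belongs to, was TGTTTAC. For AP-1 the search used TGACTCA. The E-box was CACGTG. For the core promoter box bound by TBP the letters were TATAAA, with TTTAAA as a looser form. No matches overlapped in the members' windows. The Ptgs2 window held 1 match, CACGTG at bases 17 to 22 after the start and therefore outside the stretch shown. This motif was in 7.15% of the 32851 mouse promoters searched the same way. The Ptgs1 window held AGAACA on the minus strand, 199 to 204 bases before the start, and the Ptges window held it on the plus strand, 186 to 191 bases before the start, as did 19.0% of all promoters. The Ptges start in RefSeq lies inside the GENCODE gene, which begins farther upstream. RefSeq windows were found for 9 of the 10 members, Ptgis being the exception. The windows of the other members held AGAACA (Pla2g4a and Ptger2), TATAAA (Pla2g4a), TTTAAA (Pla2g4a and Ptgfr), TGACTCA (Ptgds) or CAGACA (Ptgir), and that of Ptger4 held none of the motifs. These matches describe letters in a window and say nothing of binding.

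The first question was how WT cells responded to TGF-β1 + DMII. Of the 9 members tested, 2 were DEGs (adjusted p below 0.05 in edgeR's quasi-likelihood test and an absolute log2 fold change above 1), Ptgs2 rising and Ptges falling, where 19.9% of all genes tested were DEGs. The same response gave 3 DEGs in clone 1 (background 16.7%) and 3 in clone 2 (17.7%). In clone 1 Ptgs2 rose while Ptges and Ptgir fell. In clone 2 Ptgs2 and Ptger4 rose while Ptgis fell. The median log2 fold change of the tested members was 0.11 in WT, 0.28 in clone 1 and 0.09 in clone 2, beside -0.04, -0.02 and -0.02 over all genes tested.

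**Figure D1:**
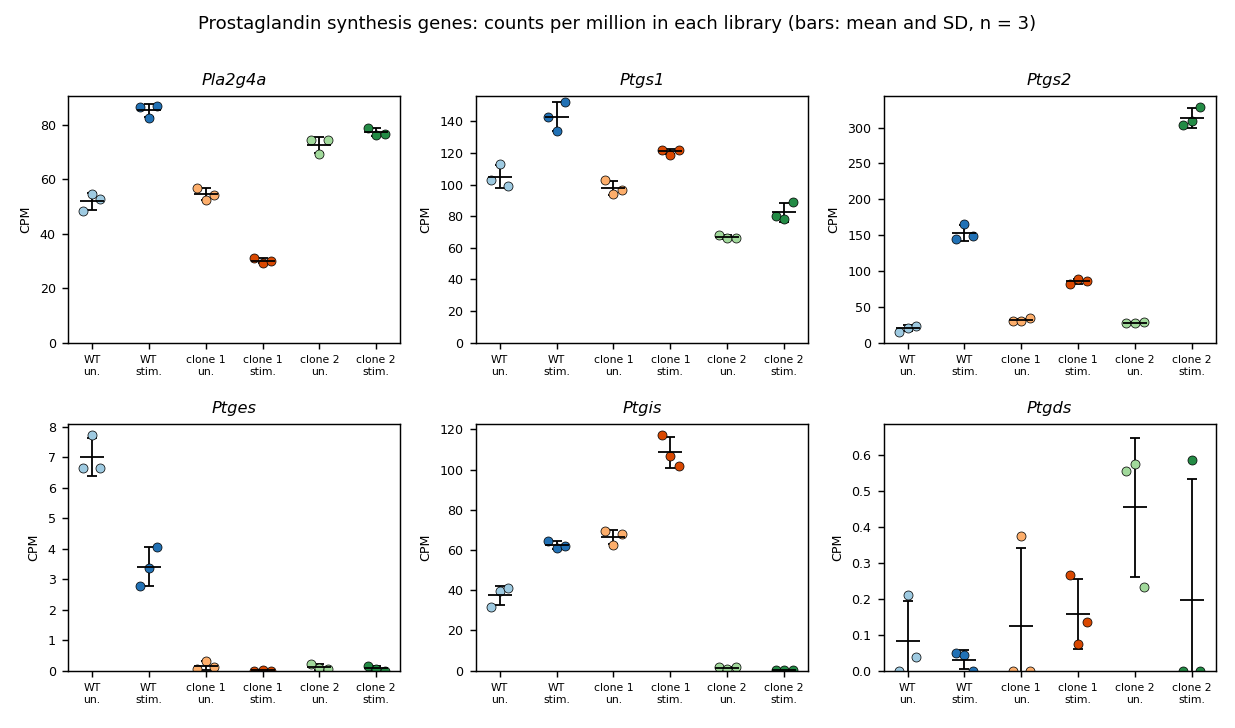
Synthesis genes, 1 panel per gene: CPM (linear axis from 0) in each library of the 6 groups (un., uninduced; stim., TGF-β1 + DMII stimulated); points are libraries, and horizontal marks with bars are the mean and SD of 3, with bars below 0 not drawn. Ptgs2 reached 303 to 329 CPM in stimulated clone 2 and 81.6 to 88.5 CPM in stimulated clone 1, Ptges was above 2 CPM in WT libraries alone, and Ptgis was at most 1.76 CPM in clone 2.

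Pla2g4a (chr1:149829618-149961290, minus strand), which encodes the cytosolic phospholipase A2 that supplies arachidonate, was higher after stimulation in WT and lower after it in clone 1. In WT it measured 48.5, 54.6 and 52.6 CPM uninduced and 86.5, 82.4 and 87 CPM stimulated. In clone 1 it measured 56.7, 52.3 and 54.4 CPM uninduced and 31.1, 29.1 and 30 CPM stimulated. The 2 groups of each line did not overlap, and the 3 stimulated clone 1 libraries held the lowest levels of all 18. Clone 2 was at 74.4, 69.3 and 74.3 CPM uninduced and 78.9, 76.2 and 76.7 CPM stimulated, with the stimulated libraries slightly above. The log2 fold change of the response was 0.72 in WT (SE 0.0596, adjusted p 1.24e-11). It was -0.86 for clone 1 (SE 0.0629, adjusted p 7.91e-13) and 0.09 for clone 2 (SE 0.059, adjusted p 0.209), none of the 3 past the fold threshold. As these are bulk libraries, fewer cells of a type and less RNA per cell cannot be told apart here or in any result below. Nothing in the labels says that libraries of a group came from separate cultures, so the p-values measure the spread between these libraries, which may be technical.

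Ptgs1, the constitutive cyclooxygenase, stayed under the fold threshold in every comparison. It measured 103, 113 and 99.1 CPM in WT uninduced and 143, 134 and 152 CPM in WT stimulated libraries. Its level in clone 1 was 103, 94.3 and 96.3 CPM uninduced and 122, 119 and 122 CPM stimulated. Clone 2 had the lowest levels, 68.2, 66.2 and 66.2 CPM uninduced and 79.9, 78.1 and 89.1 CPM stimulated. Stimulated libraries exceeded uninduced ones in each line, and the log2 fold changes of 0.44 in WT, 0.31 in clone 1 and 0.30 in clone 2 passed the adjusted p (1.46e-07, 5.7e-05 and 0.000121) but not the fold threshold. It was a DEG in 0 of the 11 comparisons in edgeR and in DESeq2, although 8 had an adjusted p under 0.05 in edgeR. Clone 2 lay below WT by a log2 difference of -0.65 uninduced and -0.80 stimulated (adjusted p 1.8e-10 and 1.67e-12).

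Ptgs2, the inducible cyclooxygenase, rose in all 3 lines. In WT it measured 15.2, 20.4 and 23.6 CPM uninduced and 144, 165 and 148 CPM stimulated. In clone 1 the values were 30.4, 30.7 and 33.6 CPM uninduced and 81.6, 88.5 and 86.1 CPM stimulated. In clone 2 they were 27.4, 26.9 and 29.1 CPM uninduced and 303, 309 and 329 CPM stimulated. The uninduced libraries of both clones thus lay above those of WT, whereas after stimulation WT lay between the clones with no overlap among the 3 lines. Its level rose 7.64-fold in WT (log2 2.93, SE 0.0941, adjusted p 4.44e-18), 2.71-fold in clone 1 (log2 1.44, SE 0.0903, adjusted p 2.17e-12) and 11.3-fold in clone 2 (log2 3.50, SE 0.0913, adjusted p 7.36e-20). Its exons share 0 bases with another gene in GENCODE M21.

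The balance of the cyclooxygenase transcripts, as CPM of Ptgs2 per kb over that of Ptgs1, followed from these levels. The ratio was 0.125, 0.153 and 0.202 in WT uninduced and 0.857, 1.05 and 0.825 in WT stimulated libraries. In clone 1 it was 0.25, 0.276 and 0.295 uninduced and 0.566, 0.628 and 0.599 stimulated. In clone 2 it was 0.34, 0.345 and 0.373 uninduced and 3.21, 3.35 and 3.14 stimulated. Per length, Ptgs1 exceeded Ptgs2 in every uninduced library and in every stimulated library of clone 1, WT stimulated libraries lay near parity, and Ptgs2 exceeded Ptgs1 in all 3 stimulated clone 2 libraries.

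**Figure D2:**
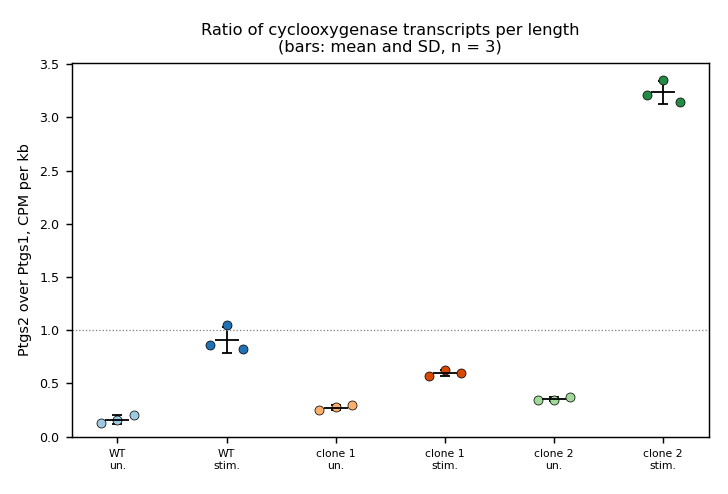
Ratio of Ptgs2 to Ptgs1, each as CPM per kb of gene length, in each library (points) with the mean and SD of 3 (marks and bars); the dotted line marks equal levels. Means were 0.16 and 0.91 in WT, 0.274 and 0.597 in clone 1 and 0.353 and 3.23 in clone 2, uninduced and stimulated.

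Among the terminal synthases, Ptges had 435 counts in WT uninduced and 225 counts in WT stimulated libraries. Its levels there were 6.64, 7.71 and 6.63 CPM uninduced and 2.79, 3.37 and 4.06 CPM stimulated, without overlap. The fall in WT, by 1.04 on the log2 scale (SE 0.324, adjusted p 0.00689), lay just past the fold threshold and was no longer a DEG without WT uninduced replicate 2 (log2 fold change -0.96) or without WT stimulated replicate 1 (-0.89). Both clones had almost no Ptges. Clone 1 held 9 counts over its 3 uninduced libraries and 1 count over its 3 stimulated libraries, and clone 2 held 13 and 4 counts. The fall called in clone 1 (adjusted p 0.0234) rests on 9 against 1 count, a ratio of 10.6 with a 95% counting interval from 1.47 to 466, and it was lost without clone 1 uninduced replicate 2, stimulated replicate 1 or stimulated replicate 3.

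Ptgis (ENSMUSG00000017969, chr2:167191805-167240604, minus strand) encodes prostacyclin synthase. In WT it measured 31.9, 39.6 and 40.9 CPM uninduced and 64.4, 60.9 and 62.2 CPM stimulated. In clone 1 it measured 69.3, 62.6 and 68 CPM uninduced and 117, 107 and 102 CPM stimulated. In clone 2 it measured 1.76, 0.886 and 1.57 CPM uninduced and 0.336, 0.458 and 0.421 CPM stimulated, from 126 and 20 counts. Clone 2 was thus far below both other lines in every library, and it fell further on stimulation (log2 fold change -1.86, SE 0.323, adjusted p 1.36e-05). In WT and clone 1 the log2 fold change was 0.73 (SE 0.0884, adjusted p 2.66e-08) and 0.71 (SE 0.0849, adjusted p 3.11e-08), past the adjusted p but not the fold threshold. Of its exonic bases, 6.08% are shared with 1110018N20Rik on the opposite strand, and reads there cannot be assigned if counting ignored strand.

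Ptgds, the lipocalin-type prostaglandin D synthase, was close to the detection floor. It had 5, 2, 7, 10, 42 and 9 counts in WT, clone 1 and clone 2, uninduced before stimulated in each, and no library exceeded 0.588 CPM. Of the 11 comparisons, 0 called it in edgeR and in DESeq2 and 1 reached an unadjusted p under 0.05, and its smallest adjusted p was 0.0628, in clone 2 against WT uninduced.

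Among the receptor genes, Ptger2, an EP receptor for prostaglandin E2, had 0 counts in both WT groups, which allows up to 0.048 CPM uninduced and 0.0456 CPM stimulated (3 counts over the group, counting error only). It had 1 and 5 counts in clone 1 and 1 and 4 counts in clone 2, uninduced and stimulated.

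Ptger4 (ENSMUSG00000039942, chr15:5206661-5244187, minus strand), the other cAMP-raising EP receptor, was low in WT. It measured 0, 0.577 and 0.686 CPM in WT uninduced and 0.245, 0.475 and 0.721 CPM in WT stimulated libraries. In clone 1 it measured 2.51, 2.9 and 2.59 CPM uninduced and 3.99, 2.99 and 2.78 CPM stimulated. In clone 2 it measured 0.424, 0.221 and 0.348 CPM uninduced and 1.74, 2.55 and 1.74 CPM stimulated. All 6 clone 1 libraries and the 3 stimulated clone 2 libraries thus exceeded every WT library, while uninduced clone 2 overlapped WT. In clone 2 it rose 5.75-fold on stimulation (log2 2.52, SE 0.502, adjusted p 8.32e-05). The response of WT (log2 fold change 0.11, 95% interval -1.11 to 1.34) and of clone 1 (0.28, -0.60 to 1.17) did not pass the test. Part of its exonic sequence, 16.5%, is shared with Ttc33 and Gm15937 on the opposite strand, and reads there cannot be assigned if counting ignored strand. Ttc33 itself lay above WT, under the fold threshold. Its log2 differences were 0.66 uninduced and 0.81 stimulated in clone 1, and 0.33 and 0.60 in clone 2. The part of Ttc33 in the Ptger4 values was not tested.

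Ptgfr (ENSMUSG00000028036, chr3:151796502-151837630, minus strand), the prostaglandin F2α receptor, had the highest level per length of the 4 receptor genes in all 6 groups. In WT it measured 37.4, 36.2 and 33.5 CPM uninduced and 22, 21.5 and 23 CPM stimulated. In clone 1 the values were 22.3, 19 and 20.6 CPM uninduced and 20.4, 20.3 and 23.5 CPM stimulated. In clone 2 they were 32.5, 33.8 and 34.4 CPM uninduced and 40.3, 41.8 and 44.6 CPM stimulated. Stimulated WT lay below uninduced WT, the groups of clone 1 overlapped, and stimulated clone 2 lay above uninduced clone 2. The log2 fold changes were -0.69 (SE 0.0839, adjusted p 3.23e-08), 0.05 (SE 0.0869, adjusted p 0.659) and 0.33 (SE 0.0816, adjusted p 0.000907), none past the fold threshold.

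Ptgir (ENSMUSG00000043017, chr7:16906490-16910905, plus strand), the prostacyclin receptor, was lower after stimulation in each line. It measured 2.74, 3.25 and 3.77 CPM in WT uninduced and 1.81, 1.81 and 1.35 CPM in WT stimulated libraries. In clone 1 it measured 7.22, 8.05 and 6.21 CPM uninduced and 2.93, 3.43 and 1.82 CPM stimulated. In clone 2 it measured 4.31, 3.5 and 5.16 CPM uninduced and 2.41, 1.83 and 2.77 CPM stimulated. No line had overlapping groups, and with all libraries the fall passed both thresholds in clone 1 (log2 fold change -1.38, SE 0.234, adjusted p 9.49e-06). The WT value of -0.98 (SE 0.258, adjusted p 0.00161) stopped short of the fold threshold, as did the clone 2 value of -0.88 (SE 0.249, adjusted p 0.00361). WT passed it without uninduced replicate 1 (-1.09), stimulated replicate 1 (-1.03) or stimulated replicate 2 (-1.04), and clone 2 passed it narrowly without uninduced replicate 2. The difference of the clone 1 response from that of WT did not pass its own test (-0.40, SE 0.35, adjusted p 0.427).

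**Figure D3:**
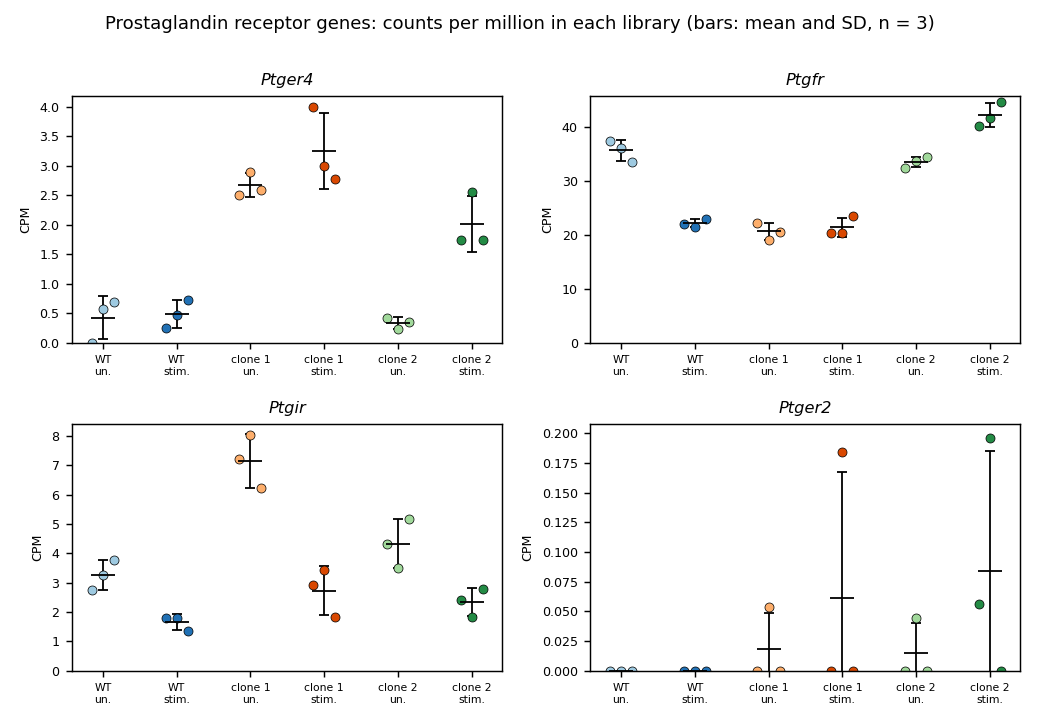
Receptor genes, 1 panel per gene: CPM (linear axis from 0, scaled per gene) in each library, with the mean and SD of 3; bars below 0 are not drawn. Ptger4 was above 1 CPM in clone 1 and in stimulated clone 2 alone, and Ptger2 stayed at or below 0.196 CPM.

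Set in order of CPM per kb, Ptgs1 led in both WT groups and in uninduced clone 2, Ptgis led in both groups of clone 1, and Ptgs2 led in stimulated clone 2. Among the leading genes the ranges of neighbours overlapped for Ptgs1 and Ptgs2 in stimulated WT (34.5 to 39.2 against 31.4 to 36.1), for Ptgis and Ptgs1 in uninduced clone 1 (24.4 to 27 against 24.3 to 26.5) and for Ptgfr and Ptgs2 in uninduced WT (4.94 to 5.53 against 3.32 to 5.14). In stimulated clone 2 the first 3 genes, Ptgs2 (68.5 ± 3.05 CPM per kb), Ptgs1 (21.2 ± 1.51) and Pla2g4a (12.1 ± 0.226), did not overlap (SD, n = 3). Of the terminal synthases among the members, Ptges was at 0.0198 ± 0.0216, Ptgis at 0.158 ± 0.0243 and Ptgds at 0.119 ± 0.206 CPM per kb there. Synthase genes outside the members had counts in that group, Ptges2 averaging 50.7 ± 1.72 CPM and Ptges3 154 ± 10.8 CPM (not per kb). In stimulated clone 1 the first 3 were Ptgis (42.4 ± 3), Ptgs1 (31.2 ± 0.404) and Ptgs2 (18.6 ± 0.762), again without overlap.

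The next question was where the clones differed from WT before stimulation. Both comparisons use the same 3 WT libraries, so they are not independent of each other. In clone 1, 3 of the 9 tested members were DEGs (background 15.1%), Ptger4 and Ptgir being higher and Ptges lower. In clone 2, 2 were DEGs (background 15.1%), and both, Ptges and Ptgis, were lower. The median log2 difference of the members was 0.57 in clone 1 and -0.09 in clone 2, beside -0.01 and -0.02 over all genes tested.

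Ptges was 44.5-fold lower in uninduced clone 1 (95% interval 23.2 to 97.9, from counting error only, adjusted p 5.85e-11 in edgeR) and 45.3-fold lower in uninduced clone 2 (26.2 to 85.8, adjusted p 1.58e-11). The fitted log2 difference moved from -5.43 to -6.40 without clone 1 uninduced replicate 2 and from -5.51 to -6.42 without clone 2 uninduced replicate 1, the libraries that held most of the few counts. Of the 8 tested genes within 100 kb of it, 0 were DEGs in edgeR in either clone, uninduced or stimulated, with 4 to 7 at an unadjusted p under 0.05 and log2 differences from -0.25 to 0.87. Ptgis lay below WT in uninduced clone 2 by a log2 difference of -4.67 (SE 0.133, adjusted p 2.84e-22), a 25.4-fold difference, and in clone 1 it lay above WT by 0.83 (SE 0.0887, adjusted p 4.25e-09), under the fold threshold. The only tested gene within 100 kb of Ptgis, B4galt5, was higher than in WT in both clones, by log2 differences of 1.32 to 1.99 over the 4 comparisons.

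On the receptor side, Ptger4 was 5.9-fold higher in uninduced clone 1 (log2 2.56, SE 0.488, adjusted p 5.42e-05), and in uninduced clone 2 its log2 difference was -0.37 (95% interval -1.62 to 0.87). Ptgir was 2.18-fold higher in uninduced clone 1 (log2 1.13, SE 0.232, adjusted p 0.000149), and in clone 2 its log2 difference of 0.39 did not pass (SE 0.235, adjusted p 0.166). Of the 4 endothelial markers, Tek averaged 5.91 CPM and Pecam1 0.617 CPM in WT uninduced libraries, against at most 0.398 and 0.157 CPM in the other groups. The other markers of that list did not share this, Cdh5 being at 0.0127 CPM and Kdr at 0 there. The part of Tek and Pecam1 in these differences was not tested.

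The clones were then compared with WT after stimulation. In clone 1, 3 members were DEGs (background 19.0%), Ptger4 being higher and Ptges and Pla2g4a lower. In clone 2, 4 members were DEGs (background 16.9%), Ptgs2 and Ptger4 being higher and Ptges and Ptgis lower. Both comparisons again share their WT libraries. The members' median log2 difference was -0.05 in clone 1 and 0.50 in clone 2, beside -0.01 in both over all genes tested.

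Pla2g4a was 2.84-fold lower in stimulated clone 1 than in stimulated WT (log2 difference -1.51, SE 0.0619, adjusted p 6.89e-19), against -0.14 (SE 0.0589, adjusted p 0.0418) in clone 2. Ptgs2 lay below WT in stimulated clone 1 by a log2 difference of -0.84 (SE 0.0825, adjusted p 6.23e-09), short of the fold threshold, and was 2.06-fold higher in stimulated clone 2 (log2 1.04, SE 0.0807, adjusted p 1.03e-10), just past it. Of the 5 adipocyte markers only Plin1 rose in stimulated clone 1, where it averaged 7.78 CPM, against at most 0.646 CPM in the other groups. Adipoq averaged 0.207 CPM there and 0.193 CPM in uninduced clone 1, and Cfd, Lep and Retn were at 0. The part of Plin1 in the clone 1 values was not tested.

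Ptges stayed far below WT. The ratio of WT to clone 1 was 232 (95% counting interval 41.2 to 9210, on 225 against 1 count) and that of WT to clone 2 was 42.6 (16.4 to 158, on 225 against 4 counts). The single count of clone 1 was in stimulated replicate 2, without which that group is at 0, and without clone 2 stimulated replicate 1 the fitted log2 difference of clone 2 moved from -5.31 to -6.52. Ptgis was 153-fold lower in stimulated clone 2 than in WT (log2 difference -7.26, SE 0.177, adjusted p 3.41e-24), while stimulated clone 1 stood above WT by 0.80 (SE 0.0848, adjusted p 2.42e-09). Ptger4 was 6.63-fold higher in clone 1 (log2 2.73, SE 0.474, adjusted p 1.22e-05) and 4.1-fold higher in clone 2 (log2 2.04, SE 0.491, adjusted p 0.000775). Ptgfr lay above WT by 0.93 in stimulated clone 2 (SE 0.0841, adjusted p 8.93e-11), under the fold threshold, and by -0.05 in clone 1 (95% interval -0.24 to 0.13).

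**Figure D4:**
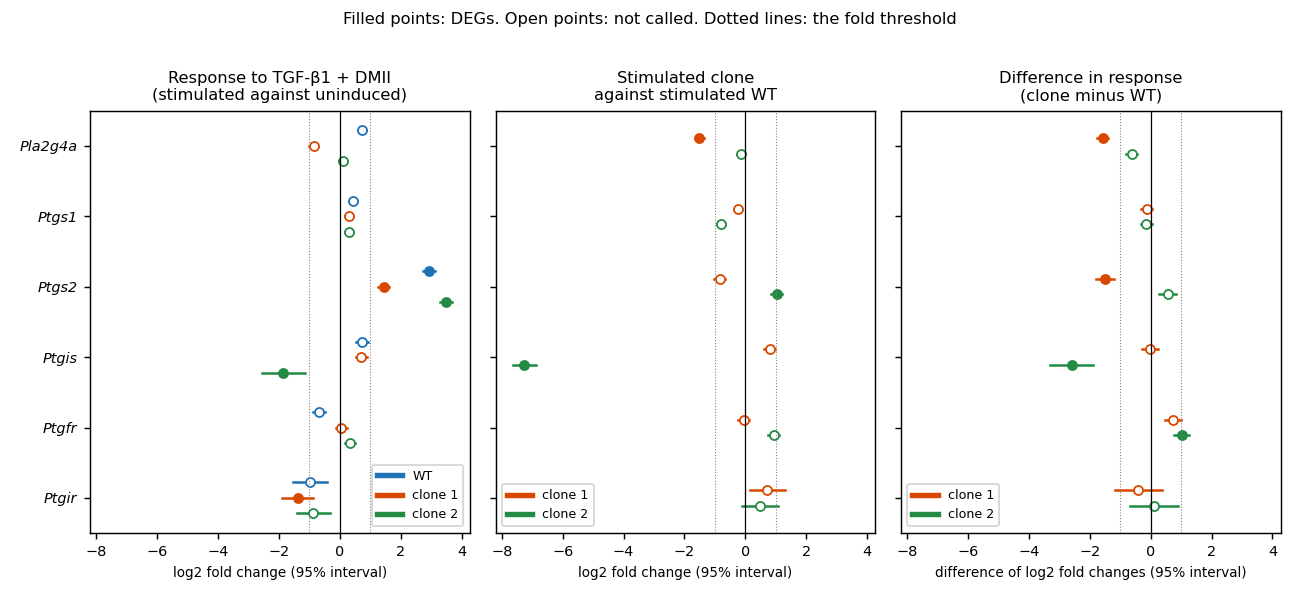
Log2 fold changes of 6 members with 95% intervals from the edgeR fit: response of each line (left), stimulated clone against stimulated WT (middle) and difference of a clone's response from that of WT (right). Filled points are DEGs, dotted lines mark the fold threshold, and Ptges, Ptger4, Ptgds and Ptger2 are left out for their low counts; in the right panel the DEGs were Ptgs2 and Pla2g4a in clone 1 and Ptgis and Ptgfr in clone 2.

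Whether the clones responded differently from WT was tested directly, as the difference of the log2 fold changes. For clone 1 this gave 2 DEGs among the 9 members (background 8.81%), Ptgs2 and Pla2g4a. The response of Ptgs2 was smaller than in WT by a log2 difference of -1.50 (SE 0.13, adjusted p 2.27e-09). That of Pla2g4a differed by -1.57 (SE 0.0867, adjusted p 4.44e-15), having run in opposite directions in WT and clone 1. For clone 2 there were 3 DEGs (background 7.85%). The signed difference, clone 2 minus WT, was -2.59 for Ptgis (SE 0.326, adjusted p 2.14e-07), whose log2 fold change was 0.73 in WT and -1.86 in clone 2. It was 2.41 for Ptger4 (SE 0.76, adjusted p 0.0149), which was at 0.11 in WT and rose by 2.52 in clone 2. For Ptgfr it was 1.02 (SE 0.117, adjusted p 3.88e-08), from -0.69 in WT to 0.33 in clone 2. The Ptger4 call was lost without WT uninduced replicate 3 (1.83), and the Ptgfr call, which lay at the fold threshold, was lost without any of 4 libraries, WT uninduced replicate 1, WT stimulated replicate 2, clone 2 uninduced replicate 1 or clone 2 stimulated replicate 3, at 0.98 to 0.99. For Ptgs2 in clone 2 the difference was 0.57 (SE 0.128, adjusted p 0.00126), under the fold threshold. The members' medians were -0.14 and 0.11 for clones 1 and 2, beside -0.01 and -0.01 over all genes tested.

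The clones also differed from each other. Uninduced, 2 members were DEGs (background 8.67%), Ptgis and Ptger4, both higher in clone 1. For Ptgis the log2 difference was 5.49 (SE 0.13, adjusted p 1.23e-23) and for Ptger4 it was 2.93 (SE 0.491, adjusted p 1.35e-05). Stimulated, 3 were DEGs (background 9.98%), Ptgis being higher in clone 1 (log2 difference 8.06, SE 0.169, adjusted p 5.22e-25) and Ptgs2 and Pla2g4a lower (-1.88, SE 0.0833, adjusted p 8.49e-15, and -1.36, SE 0.0626, adjusted p 5e-17). Medians were 0.19 uninduced and -0.29 stimulated for the members, and 0.00 for all genes tested in both. Ptges, near 0 in both clones, gave a log2 difference of 0.09 uninduced with a 95% interval from -1.47 to 1.65, so a sizeable difference between clones was not detectable at this depth.

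The other genes of the pathway were grouped in 5 lists. Of 7 other prostanoid synthases and reductases, 5 were tested. In the WT response 0 of them were DEGs in edgeR and in DESeq2, with 4 at an unadjusted p under 0.05. Against stimulated WT, 3 were lower in clone 1 (background 19.0%) and 2 in clone 2 (16.9%), the same background holding for these comparisons in the lists below, as 19.9% does for the WT response. The list's median log2 value was 0.33 in the WT response, -1.05 in stimulated clone 1 and -0.91 in stimulated clone 2, where all genes tested had -0.04, -0.01 and -0.01. Cbr1, a carbonyl reductase that can convert prostaglandin E2 to F2α, averaged 34.7 ± 2.48 CPM in stimulated WT, 1.27 ± 0.341 CPM in stimulated clone 1 and 11.6 ± 0.425 CPM in stimulated clone 2 (SD, n = 3), with log2 differences of -4.81 and -1.58 (SE 0.157 and 0.119, adjusted p 2.28e-21 and 1.34e-12). Cbr1 was already lower than in WT before stimulation, by log2 differences of -5.08 in clone 1 and -1.50 in clone 2 (SE 0.155 and 0.11). Fam213b, a prostamide and prostaglandin F synthase, had 96 counts in stimulated WT and 0 in stimulated clone 1, at least 33-fold lower against a floor of 3 counts over the group, and its log2 difference in clone 2 was -2.47 (SE 0.627, adjusted p 0.00144). Uninduced, the log2 difference of Fam213b was -2.89 in clone 1 (SE 0.613) and -0.75 in clone 2 (SE 0.502), the latter not passing the test. Ptges3, the cytosolic prostaglandin E synthase also known as the chaperone p23, was lower in clone 1 by a log2 difference of -1.05 (SE 0.0821, adjusted p 1.95e-10), and near-identical copies elsewhere in the genome make its counts uncertain. Ptges2 went the other way, lying above stimulated WT by 0.83 in clone 1 and 0.78 in clone 2 (SE 0.0926 and 0.0938), under the fold threshold.

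Of 6 other prostanoid receptor genes, 3 were tested, and 2 of them fell in WT on stimulation. Neither was called when only the WT groups entered the fit. A filter of at least 1 CPM in 3 libraries left both out before testing, so that setting does not bear on them. Ptger1, an EP receptor, went from 60 to 2 counts (ratio 31.6, 95% counting interval 8.37 to 267), and Tbxa2r, the thromboxane receptor, from 47 to 1 count (49.5, 8.46 to 2000). Their levels in WT uninduced libraries were uneven, 0.939 ± 0.971 and 0.731 ± 0.734 CPM (SD, n = 3). Against stimulated WT, 0 of the 3 were DEGs in either clone in edgeR and in DESeq2, with 1 at an unadjusted p under 0.05 in each. The median of the 3 was -4.71 in the WT response, set by a gene with 2 counts in stimulated WT, -0.16 in stimulated clone 1 and 0.30 in stimulated clone 2.

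Of 6 transport and breakdown genes, 5 were tested, with medians of -0.43 in the WT response, -0.24 in stimulated clone 1 and -0.34 in stimulated clone 2. In WT 2 fell, in clone 1 1 was higher and 1 lower, and in clone 2 1 was higher. Abcc4, an exporter of prostaglandins, fell in WT by 1.13 on the log2 scale (SE 0.0873, adjusted p 2.35e-12), from 38.8 ± 5.42 to 17.8 ± 2.26 CPM. It was higher than in WT in both stimulated clones, at 81.1 ± 3.6 CPM in clone 1 (log2 difference 2.19, SE 0.0852, adjusted p 1.79e-19) and 83.4 ± 3.92 CPM in clone 2 (2.23, SE 0.0859, adjusted p 1.59e-19). Slco2a1, which takes prostaglandins up, fell in WT by 2.61 on the log2 scale (SE 0.683, adjusted p 0.00156). Ptgr2, which reduces 15-keto-prostaglandins, had 589 counts in stimulated WT and 0 in stimulated clone 1, at least 203-fold lower against the same floor, and its log2 difference in clone 2 was -0.34 (SE 0.245, adjusted p 0.254). Before stimulation Ptgr2 already had 761 counts in WT against 11 in clone 1 (log2 difference -5.94, SE 0.404). Its log2 difference in uninduced clone 2 was -0.86 (SE 0.237), under the fold threshold.

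Of 20 other phospholipase A2 and arachidonate-handling genes, 8 were tested, with medians of 0.55, 0.37 and 0.07 in the same 3 comparisons. DEGs numbered 2 in the WT response and 1 in stimulated clone 1, and 0 in stimulated clone 2 in edgeR and in DESeq2, with 7 at an unadjusted p under 0.05. In WT Acsl4, which activates arachidonate to its CoA ester, rose by a log2 fold change of 2.47 (SE 0.0521, adjusted p 6.07e-26), and Mgll, the monoacylglycerol lipase that can release arachidonate, fell by 2.13 on the log2 scale (SE 0.151, adjusted p 2.98e-13). Mgll stood at 2.94 ± 0.474 CPM in stimulated WT, 29.6 ± 3 CPM in stimulated clone 1 (log2 difference 3.33, SE 0.146, adjusted p 3.29e-18) and 2.58 ± 0.262 CPM in stimulated clone 2 (SD, n = 3). Of 13 lipoxygenase and leukotriene genes only Alox5ap and Lta4h were tested, with medians of 1.27, -1.20 and -1.57. Alox5ap, which presents arachidonate to 5-lipoxygenase, rose in WT from 0.881 ± 0.511 to 4.05 ± 0.697 CPM (log2 2.22, SE 0.418, adjusted p 3.68e-05). It was lower than in stimulated WT in clone 1 (1.35 ± 0.804 CPM, log2 difference -1.57, SE 0.393, adjusted p 0.00106) and clone 2 (0.506 ± 0.0733 CPM, -2.99, SE 0.463, adjusted p 2.28e-06). Before stimulation Alox5ap was higher in clone 1 than in WT (2.85 ± 0.753 CPM, log2 difference 1.71, SE 0.425, adjusted p 0.00115). In uninduced clone 2 the log2 difference was -0.09 (SE 0.458, adjusted p 0.887). The response of Alox5ap in clone 1 was -1.06 (SE 0.4, adjusted p 0.0255).

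Across the 18 libraries, which fall into 6 groups and so share their group means, the genes whose log2 CPM was most like a member's were taken from 10059 genes averaging at least 5 CPM. For Ptgs2 they were Maff (Pearson r = 0.987) and Lox (0.984). For Ptges they were Adam23 (0.983) and Slc27a3 (0.982), for Ptgis Plxdc2 (0.986) and Sdha (0.984), for Pla2g4a Scube2 (0.956) and Ppp2r3a (0.914), and for Ptgs1 Tmed4 (0.961) and Elob (0.956). Among the receptors the closest were Stat6 (0.945) and Nek9 (0.929) for Ptgfr, Plekhg4 (0.943) and Ripor1 (0.942) for Ptgir, and Znfx1 (0.906) and Eif3h (0.89) for Ptger4. Ptgds had no gene this close, Rab2b (0.684) and Mphosph9 (0.651) being the nearest. Between members, the highest correlation was that of Ptgs1 with Ptgis (0.80) and the lowest that of Ptgis with Ptgfr (-0.81), both over groups in which clone 2 stands apart in Ptgis.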

How the data were processed

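Poly(A) RNA of 18 libraries in 6 groups was sequenced with paired-end reads. The authors mapped the reads to GRCm38 (mm10) with HISAT2 and deposited raw counts per gene, together with each gene's position and length. Which program counted the reads, with which annotation release and strand setting, is not given in the sources used here. All columns were mapped to a library by name. The 10 genes, the pathway lists and the tests were chosen with earlier results of these data known.

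The counts were tested with edgeR 4.0.16 (R 4.3.3), DESeq2 1.42.0 serving for alternatives, and figures were drawn with matplotlib in Python. Genes were kept by filterByExpr given the groups, at a minimum count of 10, scaled with TMM and fitted with 1 mean per group over all 18 libraries (glmQLFit, robust, 12 residual degrees of freedom). Contrasts were tested with glmQLFTest and p-values adjusted by Benjamini-Hochberg over the 14317 genes tested. A DEG needed both an adjusted p under 0.05 and a log2 fold change above 1 in size. SE is the absolute log2 fold change over the square root of F. The same script was tested on simulated data. Totals of 15576685 to 42005596 counts set a floor of 3 counts, 0.0354 to 0.0603 CPM over a group, and counting intervals are exact binomial. Intervals and floors cover counting error only.

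Named genes were all members, Foxs1, at most 3 DEGs of each list with the largest change in the WT response and in each stimulated clone against WT, and the 2 genes most correlated with each tested member (log2 CPM, prior count 2). Ptges2, not a DEG, was named in addition. Genes within 100 kb of a member were taken from the deposited positions. Overlaps came from GENCODE M21, whose coordinates were the same for all 10 members, and promoters from RefSeq (GRCm38.p6). Alternatives were DESeq2, DESeq2 size factors, no filter, at least 1 CPM in 3 libraries, only the groups compared, a replicate block, no fold threshold, glmTreat, and leaving out each library. Replicates correlated at 0.963 to 0.993, and all 18 pairs differed by more than counting noise (chi-square per degree of freedom 3.13 to 14.6). No batch is named in the labels.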

Additional observations from a re-analysis of the deposited data

Results flagged for a closer look

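Of the 18 tests of a member's response in a clone against that in WT, 5 passed both thresholds in edgeR's quasi-likelihood test of the difference itself, 2 in clone 1 (8.81% of all genes tested) and 3 in clone 2 (7.85%). In clone 1 the log2 response of Ptgs2 was lower than in WT by a difference of -1.50 (SE 0.13, adjusted p 2.27e-09), and that of Pla2g4a by -1.57 (SE 0.0867, adjusted p 4.44e-15). For Pla2g4a all stimulated libraries lay below all uninduced ones in clone 1 and above them in WT. In clone 2 the log2 response of Ptgis was lower by -2.59 (SE 0.326, adjusted p 2.14e-07), on 126 uninduced and 20 stimulated counts. The response of Ptger4 was higher in clone 2 by 2.41 (SE 0.76, adjusted p 0.0149), on 30 and 99 counts against 29 and 32 in WT. That of Ptgfr was higher in clone 2 by 1.02 (SE 0.117, adjusted p 3.88e-08), at the edge of the fold threshold. The Ptger4 and Ptgfr calls were lost when single libraries were left out, whereas those of Ptgs2, Pla2g4a and Ptgis were kept in each of the 12 fits.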

How the results depend on the processing

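The background shares given above hold for both thresholds in the main fit. Shares of all genes tested under the settings below are not given here. The counts below therefore cannot be set against a background and do not show that members stand out. Without the fold threshold the DEGs among the 9 members numbered 7, 6 and 6 in the responses of WT, clone 1 and clone 2, 6 and 5 in uninduced and 7 and 7 in stimulated clones 1 and 2 against WT, 5 in the clone 2 response difference, and 6 and 5 between clones uninduced and stimulated. The lists, counted over the WT response and both stimulated comparisons, then held 5 (synthases), 5 (transport), 8 (phospholipases) and 2 (lipoxygenases). With glmTreat 1 member was called in the WT response, 1 in the clone 1 response, 2 in stimulated clone 2 and 1 in the clone 2 response difference. With no filter 1 was called in the WT response, and the phospholipase and lipoxygenase lists held 4 and 2. The receptor list held 0 with at least 1 CPM in 3 libraries, a filter that left Ptger1 and Tbxa2r untested, and 0 with only the groups compared. DESeq2 called 2 lipoxygenase genes. Leaving out each library gave 1 to 3 members in the WT response, Ptgir being gained in 3 of the 6 fits, and 1 to 2 lipoxygenase genes. It also gained Ptgfr between stimulated clones in 2 fits (-1.04 without clone 1 replicate 3 and -1.01 without clone 2 replicate 1). The cause of these changes was not tested, apart from the threshold or filter itself.

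Log2 values that changed sign when a library was left out were near 0 or rested on few counts, and were not DEGs. They were Ptger4 in the WT response (-0.39 to 0.68), in uninduced clone 2 (-0.87 to 0.2) and in the clone 1 response difference (-0.4 to 0.67), Ptgfr in the clone 1 response (-0.01 to 0.11), Ptges in the clone 2 response (-2.03 to 0.08), the clone 2 response difference (-1.01 to 1.12) and between uninduced clones (-0.89 to 1), Ptgis in the clone 1 response difference (-0.1 to 0.07) and Ptgir in the clone 2 response difference (-0.03 to 0.24).

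The replicate numbers did not pair libraries, since 0 of 27 pairs of same-numbered libraries correlated above 0.1 (r -0.039 to 0.05). With the replicate number as a block, 0 of 88 single-gene results changed side of the threshold, as with DESeq2 and with DESeq2 size factors.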
